A study of Homo sapiens with 8 samples.

Results

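The genes described here are 44 genes of DNA replication and nucleotide supply, taken by name from the deposited expression table. They cover origin licensing, the replicative helicase, the sliding clamp and its loader, polymerases, and single-strand binding and strand-joining proteins. Also included are enzymes that supply deoxynucleotides, grouped with the uracil-removing UNG. A last group holds 4 regulators: CCNE1, CCNE2, E2F1 and the fork checkpoint adaptor CLSPN. All 44 were found among 31461 listed genes, and all 44 reached 1 FPKM in at least 2 libraries. FPKM is the number of sequenced fragments of a gene, scaled to transcript length and to the size of the library. RNA was sequenced from wild-type A549, a lung adenocarcinoma line, and wild-type H1299, a large cell lung carcinoma line, each transfected either with miR-29a-3p or with a control microRNA. There were 2 libraries in each of the 4 groups, the question was which genes the microRNA might target, and the sources used here give neither dose nor time after transfection. No label says that the libraries of a group came from separate cultures, so every p-value reflects only how far those libraries spread, which may be technical.

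DNA replication starts when the origin recognition complex, CDC6 and CDT1 load the MCM helicase onto DNA before S phase. CDC45 and the GINS proteins then activate the helicase, primase and the polymerases copy the strands, and PCNA, loaded by RFC, holds the polymerases on DNA. Most of these genes are transcribed late in G1 and in S phase under the E2F factors, so their RNA is abundant in proliferating tumour cells and low in resting ones. In bulk RNA, fewer cells in S phase and less of each transcript per cell cannot be told apart.

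Depth was an estimated 12221310 to 15614821 fragments per library, with 12021 to 12837 genes at 1 FPKM or more, and replicates differed by a median of 0.079 to 0.088 on the log2(FPKM + 1) scale. Genes that mark the lines did not match the labels. CDKN2A, which A549 cells lack, had a level of 24.3 ± 0.72 FPKM in A549-labelled controls and 0.0818 ± 0.043 FPKM in H1299-labelled controls (SD, n = 2 each). The summed level of 8 A549 markers in the controls was 197 to 207 FPKM in the former and 1220 to 1250 in the latter. Lines are therefore named by label, as "labelled A549" and "labelled H1299", and statements on a line apply to its label. Summed fibroblast markers (0.212 to 3.5 FPKM) and endothelial markers (0.208 to 0.413) were low. Summed leukocyte markers (6 of 8 listed) were 9.29 to 9.48 FPKM in the controls labelled H1299 and 25.8 to 27.1 with miR-29a-3p, most of it CD68, a lysosomal protein that cancer lines also express, at 8.11 ± 0.033 and 24.2 ± 1 FPKM (SD, n = 2 each). PTPRC, the pan-leukocyte surface marker, was at 0 in both control groups and in the miR-29a-3p libraries labelled A549, and at 0.00673 FPKM in those labelled H1299.

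The transfected microRNA and its family are shown because their shared seed is the part that pairs with targets. The mature sequences from RefSeq (GRCh38.p14) have the seed, bases 2 to 8 from the 5′ end, in capitals, and all 3 share it.
hsa-miR-29a-3p: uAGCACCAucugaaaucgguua
hsa-miR-29b-3p: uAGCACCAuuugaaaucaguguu
hsa-miR-29c-3p: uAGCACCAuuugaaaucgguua
The gene of miR-29a-3p lies on the minus strand at chr7:130876748-130876769.

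Few replication genes carried a strong match to this seed. In the longest annotated 3′ UTR of each gene (GENCODE 29, GRCh38), a site that pairs with bases 2 to 8 was present in 4 of 44 genes, or 9.09%, against 16.4% of 11632 tested genes with an annotated 3′ UTR. None of the 44 had the same match followed by A, the 8mer, which 3.45% of tested genes had. The 4 genes were GINS1, RFC4, LIG1 and E2F1, and RPA1 and CCNE1 held the weaker match to bases 2 to 7 followed by A. Another 4 genes (MCM10, GINS2, GINS3 and TYMS) held only the 6mer, and 34 held none. A match is a description of the sequence, not evidence of binding. Only the longest 3′ UTR was searched, so a site may be absent from other transcripts of the gene. The 7-base sites of RPA1, GINS1, LIG1 and E2F1 are shown with the matching bases in capitals. Those of RFC4 and CCNE1 are not shown, and the responses of all these genes are given below.
RPA1, chr17:1897676-1897682, plus strand: ctctttctagaGGTGCTAcatagttggta
GINS1, chr20:25447762-25447768, plus strand: ggcgtgagcctTGGTGCTggcccagtgta
LIG1, chr19:48117771-48117777, minus strand: cctcaaggcgcTGGTGCTgcccagcccac
E2F1, chr20:33676275-33676281, minus strand: ctcccagaatcTGGTGCTctgaccaggcc

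E2F-type sequences were found in the promoters of 21 of these genes. Windows from 250 bases before to 50 after the annotated start (RefSeq, GRCh38.p14) were searched on both strands for the octamers TTTCCCGC, TTTGGCGC, TTTGCCGC and TTTCGCGC. At least 1 octamer was present in 21 of the 38 genes with a window, or 55.3%, against 6.83% of 9870 tested genes. Counted by window, 41.2% of the 51 windows of these genes held an octamer, against 3.31% of all 35116 windows. RPA3, MCM5, RPA2, GINS4, MCM4 and CCNE2 had no window in the table. The pentamer CCAAT, searched in the same way, was in 60.5% of the 38 genes and 43.3% of tested genes, and TTTGAA was in 7.89% and 13.2%. The promoters of CLSPN, CDT1, PCNA and E2F1, genes with large responses in the libraries labelled H1299, are shown with E2F-type octamers and CCAAT, in either direction, in capitals.
CLSPN (chr1:35769929-35770228, minus strand): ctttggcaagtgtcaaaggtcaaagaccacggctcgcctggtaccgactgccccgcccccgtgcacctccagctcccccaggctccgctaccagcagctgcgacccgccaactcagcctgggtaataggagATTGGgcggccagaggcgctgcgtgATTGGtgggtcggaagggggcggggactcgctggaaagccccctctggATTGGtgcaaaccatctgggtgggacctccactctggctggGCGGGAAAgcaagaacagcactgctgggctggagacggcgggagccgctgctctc
CDT1 (chr16:88803539-88803838, plus strand): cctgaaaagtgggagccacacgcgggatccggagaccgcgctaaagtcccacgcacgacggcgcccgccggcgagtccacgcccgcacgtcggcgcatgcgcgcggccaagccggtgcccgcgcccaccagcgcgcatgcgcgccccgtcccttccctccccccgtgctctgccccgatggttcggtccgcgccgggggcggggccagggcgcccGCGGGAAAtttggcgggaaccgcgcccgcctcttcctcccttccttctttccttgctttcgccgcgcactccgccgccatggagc
PCNA (chr20:5126573-5126872, minus strand): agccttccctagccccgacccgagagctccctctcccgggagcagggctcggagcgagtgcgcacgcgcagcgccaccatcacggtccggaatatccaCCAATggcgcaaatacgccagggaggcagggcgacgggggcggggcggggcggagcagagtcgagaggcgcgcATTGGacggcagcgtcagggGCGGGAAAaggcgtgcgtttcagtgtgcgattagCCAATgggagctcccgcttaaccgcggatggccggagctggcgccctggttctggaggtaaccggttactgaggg
E2F1 (chr20:33686336-33686635, minus strand): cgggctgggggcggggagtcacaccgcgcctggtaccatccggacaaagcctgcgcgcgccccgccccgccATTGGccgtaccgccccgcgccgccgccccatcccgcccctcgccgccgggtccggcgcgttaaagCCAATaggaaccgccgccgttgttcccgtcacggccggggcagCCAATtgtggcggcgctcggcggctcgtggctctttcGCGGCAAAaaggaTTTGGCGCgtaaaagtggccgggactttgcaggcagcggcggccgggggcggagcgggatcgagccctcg
CLSPN, CDT1 and PCNA each held TTTCCCGC on the opposite strand, where it reads GCGGGAAA, at 5, 35 and 59 bases before the start. E2F1 held TTTGCCGC on the opposite strand and TTTGGCGC on its own. CLSPN, PCNA and E2F1 had 3 CCAAT matches each, and CDT1 had 0 in this window.

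Over the 21 genes there were 29 octamer matches, some of them overlapping on opposite strands. They lay between 187 bases before and 7 bases after the start, with a median of 35 bases before it, and 19 fell within the last 100 bases before the start. Genes with an octamer had a median log2 fold change of 1.18 (n = 21) in the libraries labelled H1299, and genes with a window but no octamer had 0.92 (n = 17). The ranges, 0.15 to 2.05 and -0.10 to 2.61, overlapped almost entirely.

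**Figure D1:**
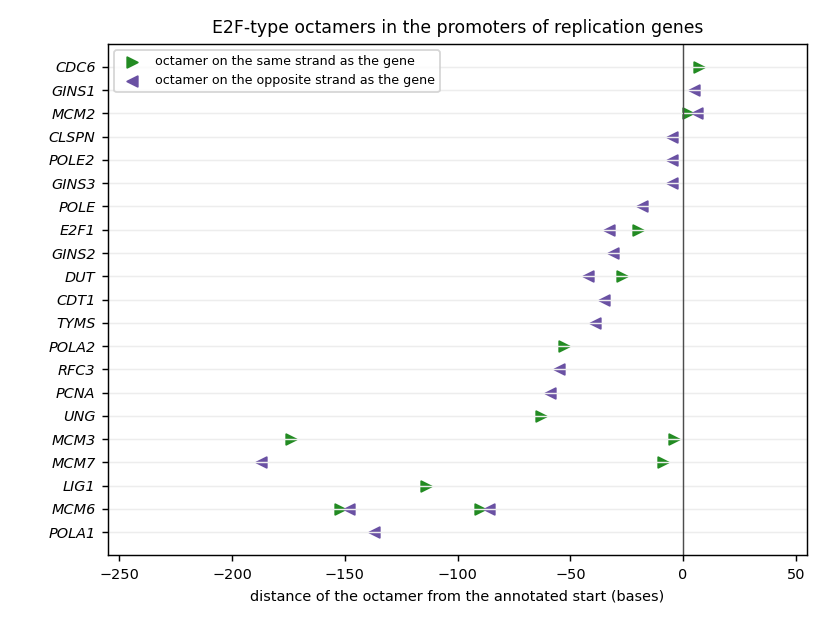
Position of each E2F-type octamer (TTTCCCGC, TTTGGCGC, TTTGCCGC or TTTCGCGC) relative to the annotated start, in bases, for the 21 replication genes that hold one in the window searched. Triangles point right for matches on the strand of the gene and left for the opposite strand, and 19 of the 29 matches lie within the last 100 bases before the start.

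Before miR-29a-3p, the replication genes other than PCNA stood clearly lower in the controls labelled H1299 than in those labelled A549. In the controls labelled A549 the mean levels ran from 2.76 FPKM (GINS4) to 93.6 (PCNA), with a median of 10.9, and in those labelled H1299 from 0.10 (CCNE2) to 81.4 (PCNA), with a median of 2.14. The median gene was 5.02-fold higher labelled A549. In the test of the 14635 genes with limma on log2(FPKM + 1), calls were made where the adjusted p (Benjamini-Hochberg) was below 0.05. All 44, PCNA included, were called lower in the controls labelled H1299, against 45.0% of all genes (29.8% were higher, 74.8% called in all), with a median log2 difference of -1.84 against -0.17 over all genes.

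CLSPN, a checkpoint adaptor of the replication fork, differed most as a ratio, at 14.9 and 15.2 FPKM in the controls labelled A549 and 0.442 and 0.372 in those labelled H1299. MCM6, a helicase subunit, had the largest log2 difference, -3.80 ± 0.061 (SE, adjusted p = 6.6e-08), from 47 and 47.3 to 2.55 and 2.35 FPKM. PCNA was the nearest to equal, at 89.6 and 97.6 and 76.2 and 86.5 FPKM (-0.20 ± 0.073, SE, adjusted p = 0.042). That call held in 5 of 16 alternatives: with libraries rescaled by median ratios or trimmed means the difference was 0.01 or 0.02 and not called, and it was lost without control 2 labelled A549 (-0.14), without control 1 labelled H1299 (-0.11), and without any 1 of the 4 miR-29a-3p libraries (adjusted p = 0.06 to 0.062). In the controls labelled H1299, 9 of the 44 genes had a mean under 1 FPKM and 2 reached 10 FPKM, while 24 reached 10 FPKM labelled A549. Their depth was thin there: CCNE2 rested on an estimated 6.3 and 3.2 fragments, POLE2 on 10.5 in each library and GINS2 on 25.1 and 13.3. Other genes were thin too, among them PRIM2 (23.1 and 18.1), RFC4 (29.9 and 24.1), GINS4 (30.2 and 28.8), CLSPN (32.9 and 21.7) and RRM2 (38.5 and 36.2). Ratios to these controls are therefore imprecise.

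After miR-29a-3p the levels of the lines lay closer together. The median gene was 1.98-fold higher labelled A549, 35 of 44 genes were called lower labelled H1299 (46.0% of all genes were), 6 were called higher (26.9% of all genes were, and 72.8% were called either way), and 3 were not called. The 6 were PCNA, GINS1, GINS4, LIG1, POLD1 and CCNE1. The 3 not called were RRM1, TK1 and UNG. With libraries rescaled by their median ratios, the all-gene median log2 difference labelled H1299 minus A549 moved from -0.21 to -0.02 after miR-29a-3p and from -0.17 to -0.01 in the controls. Of the genes called after miR-29a-3p, 3931 were higher and 6727 lower as deposited, and 5072 and 5318 after that rescaling, which left 31 replication genes lower and 6 higher. MCM10, FEN1, RPA1 and RRM2 were then no longer called, and RRM2 also lost its call without miR-29a-3p 2 labelled H1299 (-0.23, adjusted p = 0.052).

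**Figure D2:**
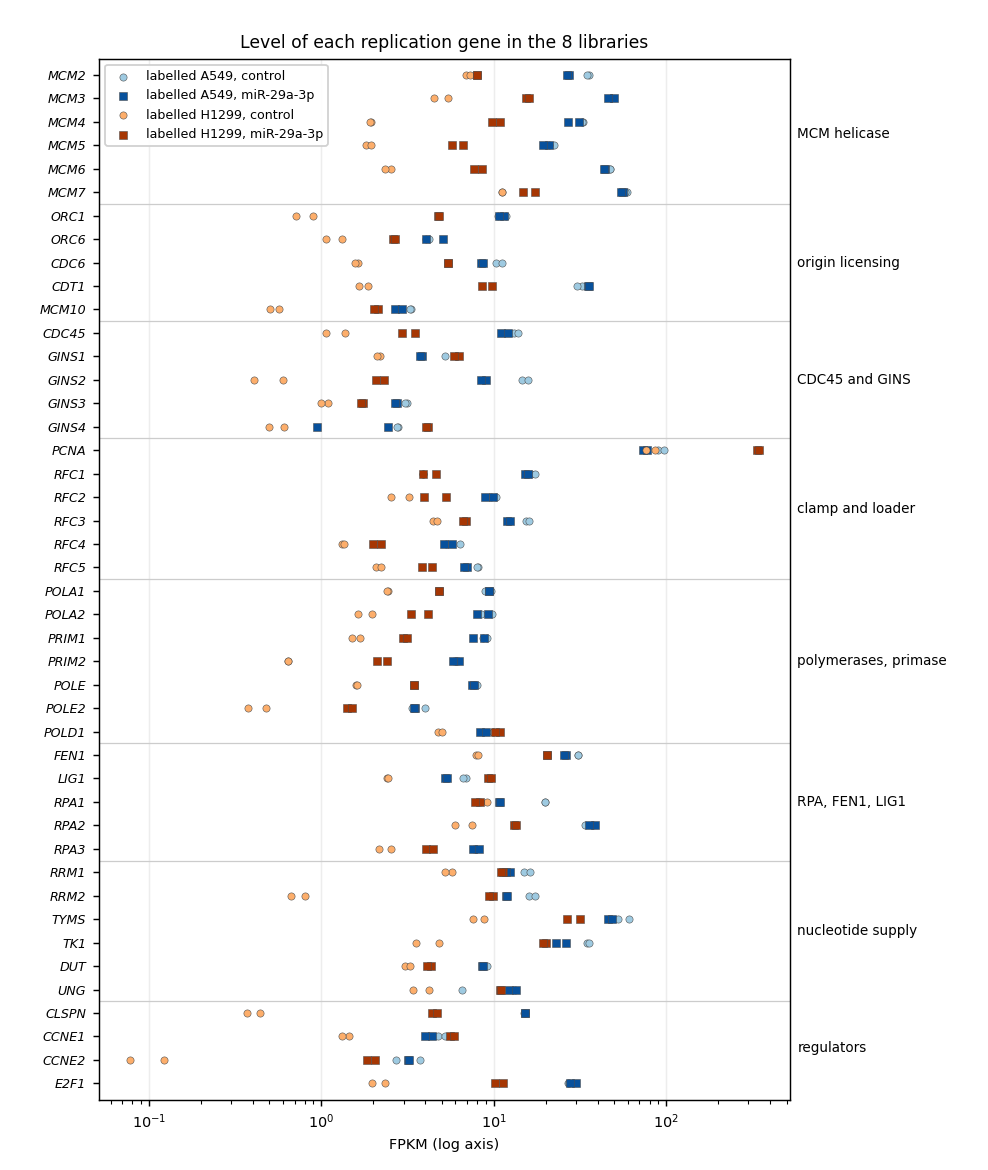
FPKM of the 44 replication genes (log axis) in each of the 8 libraries, grouped by role. Pale circles are control libraries and dark squares miR-29a-3p libraries, blue for those labelled A549 and orange to red for those labelled H1299. In the controls labelled H1299 all 44 means are below those labelled A549, and the miR-29a-3p libraries labelled H1299 lie to the right of their controls for 43 genes.

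After miR-29a-3p nearly all replication genes rose in the libraries labelled H1299, and in those labelled A549 most were not called and the rest fell. In the libraries labelled H1299, 42 of 44 replication genes rose (95.5%, against 25.1% of all genes) and 0 fell (24.8% of all genes fell). The median log2 fold change was 0.99, against 0.00 over all genes, and 30 genes were at least 2-fold and 12 at least 4-fold higher as ratios of mean FPKM. Of the 8 A549 markers, 6 also rose labelled H1299, 0 fell and 2 were not called. Their log2 fold changes ran from -0.09 to 3.93 (median 0.64). Their summed level reached 2610 to 2680 FPKM with miR-29a-3p (210 to 211 FPKM labelled A549). The part of these markers in the rise of the replication genes was not tested. In the libraries labelled A549, 12 of 44 fell (27.3%, against 8.66% of all genes), and 0 rose (7.30% of all genes did) in the limma fit. At an unadjusted p under 0.05 in that fit, 0 of the 44 were higher and 16 lower. Of all 14635 genes, 2232 were higher and 2351 lower at that threshold. The median of the 44 was -0.12, against 0.00 over all genes. No ratio reached 2-fold in either direction, the range being 0.541 to 1.31.

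A direct test of the difference in response (labelled H1299 minus labelled A549) called 42 of 44 genes, all in the direction of H1299, with a median of 1.16. Of all genes 37.3% were called in that test, 19.2% in this direction and 18.1% in the other. The exceptions were RFC1 and UNG. By call, 11 genes fell labelled A549 and rose labelled H1299, and 31 rose labelled H1299 and were not called labelled A549. RPA1 fell labelled A549 and was not called labelled H1299, and RFC1 was called in neither. These pairs of calls were not counted over all genes. Labelled A549, 12299 of the 14635 genes tested were not called. The libraries of the 2 treatments did not overlap for 43 genes labelled H1299, all higher (38.5% of all genes were, and 37.4% were lower without overlap), and for 25 genes labelled A549 that were lower (29.2% of all genes) and 2 that were higher (29.8%). The controls labelled H1299 enter both their low starting levels and this rise, so these are not separate lines of evidence. Of the 12 falls labelled A549, those of MCM2, GINS2, RPA1 and RRM2 held in every alternative. Without control 1, control 2, miR-29a-3p 1 or miR-29a-3p 2 labelled A549, 8, 6, 5 and 5 of the 12 were still called.

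**Figure D3:**
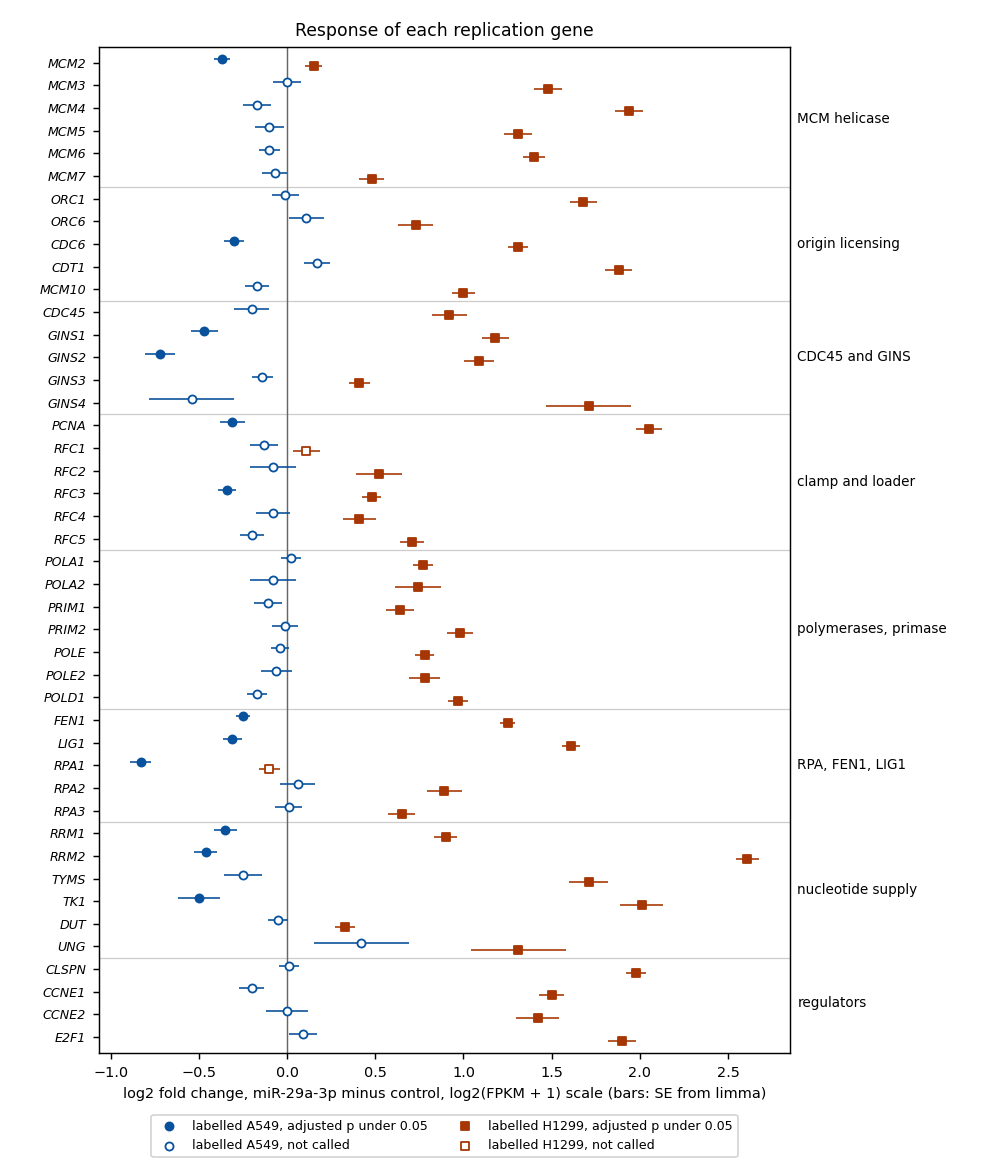
Log2 fold change, miR-29a-3p minus control on the log2(FPKM + 1) scale, of each replication gene, with bars of 1 SE from limma. Blue circles are the libraries labelled A549 and red squares those labelled H1299, filled where the adjusted p is under 0.05. The red points lie right of 0 for 43 of 44 genes, and the 12 filled blue points lie left of it.

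The MCM helicase, the ring that unwinds DNA at the fork, rose as a group in the libraries labelled H1299. All 6 subunits rose (median log2 fold change 1.36), and 1, MCM2, fell labelled A549. MCM4 (ENSG00000104738, chromosome 8, 47960185 to 47978160 on GRCh38, as for all positions of genes here) stood at 1.94 and 1.92 FPKM in the controls and 10.8 and 9.8 with miR-29a-3p labelled H1299, or 1.94 ± 0.08 as log2 fold change (SE, adjusted p = 1.7e-05). Labelled A549 it stood at 33.1 and 32.5 and 31.3 and 27, which was not called. MCM2 (ENSG00000073111, chromosome 3, 127598223 to 127622436) was the subunit that moved least labelled H1299, from 6.92 and 7.26 to 7.99 and 7.97 FPKM (0.15 ± 0.046, SE, adjusted p = 0.035). Labelled A549 it fell from 35.6 and 34.5 to 27.3 and 26.6 (-0.37 ± 0.046, SE, adjusted p = 0.0046), with no overlap. The rise of MCM2 labelled H1299 was called in 9 of 16 alternatives and lost without any 1 of the 4 libraries of that label (adjusted p up to 0.15 over the alternatives). MCM3, MCM5 and MCM6 rose 3.15-, 3.28- and 3.31-fold as ratios of means labelled H1299, and MCM7, which shares 392 exon bases with AP4M1 on the other strand, rose 1.44-fold. The subunits of this single ring differed in response from 1.13- to 5.33-fold.

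Genes that license origins rose labelled H1299 in 5 of 5 cases (median 1.31). CDT1 (ENSG00000167513, chromosome 16, 88803213 to 88809258), which brings MCM to the origin, had the largest log2 fold change of this group, from 1.65 and 1.87 FPKM to 9.77 and 8.53 (1.88 ± 0.076, SE, adjusted p = 1.6e-05). Its libraries labelled A549 were close, at 32.3 and 30.5 in the controls and 35.1 and 35.7 with miR-29a-3p. CDC6 (ENSG00000094804, chromosome 17, 40287633 to 40304657), the loader ATPase, went from 1.64 and 1.57 to 5.44 and 5.45 FPKM labelled H1299 (1.31 ± 0.057, SE, adjusted p = 1.9e-05). It was the 1 gene of this group to fall labelled A549, from 10.3 and 11.1 to 8.38 and 8.7 FPKM (-0.30 ± 0.057, SE, adjusted p = 0.019). That fall of CDC6 was called in 11 of 16 alternatives and lost without control 2 or either miR-29a-3p library labelled A549 (adjusted p up to 0.09 over the alternatives). ORC1, the ATPase subunit of the origin recognition complex, rose 5.95-fold labelled H1299, a larger ratio of means than that of CDT1 (5.2). ORC6 rose 2.21-fold and MCM10, which helps to start unwinding, 3.87-fold.

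CDC45 and the 4 GINS genes, which complete the active helicase, rose in 5 of 5 cases labelled H1299 (median 1.09), and 2 of them fell labelled A549. GINS4 (ENSG00000147536, chromosome 8, 41529206 to 41545046) had the largest rise, from 0.499 and 0.609 FPKM in the controls to 4.14 and 4.04 (1.71 ± 0.24, SE, adjusted p = 0.0014). Labelled A549 it stood at 2.78 and 2.74 in the controls and at 0.944 and 2.43 with miR-29a-3p, so the miR-29a-3p libraries disagreed with each other. The log2 fold change of GINS4 there was -0.54 ± 0.24 (SE, limma adjusted p = 0.18) and was not called. It was -0.95 without replicate 2 of miR-29a-3p and -0.13 without replicate 1. GINS2 (ENSG00000131153, chromosome 16, 85676198 to 85690073) moved in both labels, falling from 14.5 and 15.7 to 9.06 and 8.43 FPKM labelled A549 (-0.72 ± 0.085, SE, adjusted p = 0.0038). Labelled H1299 GINS2 rose from 0.602 and 0.409 to 2.08 and 2.3 FPKM (1.09 ± 0.085, SE, adjusted p = 0.00015). GINS1 (ENSG00000101003, chromosome 20, 25407727 to 25452628), with a seed match shown above, fell from 5.23 and 6.04 to 3.82 and 3.72 labelled A549 (-0.47 ± 0.076, SE, adjusted p = 0.011). It rose from 2.19 and 2.09 to 6.32 and 5.85 labelled H1299 (1.18 ± 0.076, SE, adjusted p = 7e-05). The fall of GINS1 was lost without either miR-29a-3p library labelled A549 (adjusted p up to 0.061 over the alternatives). CDC45 and GINS3 rose 2.62- and 1.65-fold labelled H1299 and were not called labelled A549.

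PCNA (ENSG00000132646, chromosome 20, 5114953 to 5126626), the sliding clamp, was the most abundant of the 44 genes in every group. It rose from 76.2 and 86.5 FPKM to 334 and 345 labelled H1299 (2.05 ± 0.073, SE, adjusted p = 1.1e-05), a ratio of 4.17. Labelled A549 it fell from 89.6 and 97.6 to 73.7 and 77.2 (-0.31 ± 0.073, SE, adjusted p = 0.037), so the H1299-labelled libraries with miR-29a-3p held 4.5 times the level of the A549-labelled ones. The fall labelled A549 held in 7 of 16 alternatives and was lost without any 1 of the 4 libraries of that label or either miR-29a-3p library labelled H1299 (adjusted p up to 0.16 over the alternatives). Reads of PCNA can be shared with 3 named pseudogenes. The RFC genes, which encode the loader of the clamp, changed 1.1- to 1.93-fold labelled H1299. RFC3 (ENSG00000133119, chromosome 13, 33818049 to 33966558) fell from 15.3 and 16.1 to 11.9 and 12.4 FPKM labelled A549 (-0.34 ± 0.053, SE, adjusted p = 0.0095) and rose from 4.47 and 4.68 to 6.89 and 6.62 labelled H1299 (0.48 ± 0.053, SE, adjusted p = 0.00056). Without control 2 or miR-29a-3p 1 labelled A549 the fall of RFC3 was not called. RFC2, RFC4 and RFC5 rose 1.6-, 1.57- and 1.93-fold labelled H1299. RFC2 was not called there without control 1 or miR-29a-3p 2 of that label, and RFC4 without control 1 or miR-29a-3p 1. RFC1, the large subunit, was called in neither label, at 3.88 and 3.88 FPKM in the controls and 4.65 and 3.89 with miR-29a-3p labelled H1299.

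The polymerase and primase genes, which synthesise DNA and its RNA primers, all rose in the libraries labelled H1299. The 7 log2 fold changes ran from 0.64 to 0.98 on the log2(FPKM + 1) scale (median 0.78). The ratios of means ran from 1.9 (PRIM1) to 3.5 (PRIM2). Labelled A549, 0 of 7 were called, and log2 fold changes ran from -0.17 to 0.02. Of all 14635 genes, 12299 were not called labelled A549. PRIM2 (ENSG00000146143, chromosome 6, 57314805 to 57646849), the large primase subunit, rose most, from 0.642 and 0.641 FPKM to 2.09 and 2.41 labelled H1299 (0.98 ± 0.073, SE, adjusted p = 0.00012). In the libraries labelled A549, PRIM2 stood at 6.23 and 5.89 and at 6.27 and 5.77, and the treatments overlapped. POLD1, the catalytic subunit of polymerase delta, went from 4.74 and 5 to 10.8 and 10.2 FPKM, which was above the miR-29a-3p libraries labelled A549 (8.36 and 9). POLE and POLE2 of polymerase epsilon rose 2.17- and 3.4-fold, and POLA1, POLA2 and PRIM1 of the primase complex 1.99-, 2.05- and 1.9-fold.

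RPA1 (ENSG00000132383, chromosome 17, 1829702 to 1900082), the large subunit of the protein that coats single-stranded DNA, fell in the libraries labelled A549 and did not pass the test in those labelled H1299, the only one of the 44 with that pair of results. It fell from 19.9 and 19.8 FPKM to 10.7 and 10.8 labelled A549, a ratio of 0.541 and on the log2 scale -0.83 ± 0.059 (SE, adjusted p = 0.00079). Labelled H1299 it stood at 9.09 and 8.3 in the controls and 8.32 and 7.76 with miR-29a-3p, with overlap (-0.10 ± 0.059, SE, adjusted p = 0.21). RPA1 had the largest fall among the 44 labelled A549. It is 1 of the 2 genes with the 7mer ending in A, and its site is shown above. The other, CCNE1, was not called there (-0.20, limma adjusted p = 0.11). Of the genes that match bases 2 to 8, GINS1 and LIG1 fell there, and E2F1 (0.09) and RFC4 (-0.08) were not called. The exons of RPA1 share 156 bases with SMYD4 on the other strand, which stood at 3.49 and 3.75 FPKM labelled A549 (group means, adjusted p = 0.48). The partner subunits RPA2 and RPA3 were not called labelled A549 and rose 1.98- and 1.8-fold labelled H1299.

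FEN1 and LIG1 process the lagging strand: FEN1 removes flaps from Okazaki fragments and LIG1 seals the nicks. LIG1 (ENSG00000105486, chromosome 19, 48115445 to 48170603) rose from 2.42 and 2.44 FPKM to 9.21 and 9.67 labelled H1299 (1.61 ± 0.053, SE, adjusted p = 9.8e-06). The longest of its annotated 3′ UTRs holds the seed match shown above. That 3′ UTR is spliced: its matches at bases 69 and 1041 lie at 48121075 to 48121080 and 48117771 to 48117777. Other LIG1 transcripts were not searched. Labelled A549, LIG1 fell from 6.93 and 6.64 to 5.23 and 5.34 (-0.31 ± 0.053, SE, adjusted p = 0.013). FEN1 (ENSG00000168496, chromosome 11, 61792637 to 61797244) rose from 7.89 and 8.08 to 20.3 and 20.4 FPKM labelled H1299 (1.25 ± 0.041, SE, adjusted p = 9.8e-06) and fell from 30.9 and 30.8 to 26.1 and 25.4 labelled A549 (-0.25 ± 0.041, SE, adjusted p = 0.012). Neither fall held throughout: LIG1 was lost without control 1 or either miR-29a-3p library labelled A549 (adjusted p up to 0.065 over the alternatives) and FEN1 without either control or miR-29a-3p 2 (up to 0.057). FEN1 shares 49 exon bases with FADS2 on its own strand, which rose from 4.79 to 20.4 FPKM (group means) labelled H1299.

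Of the 6 genes grouped under deoxynucleotide supply, UNG included, all rose labelled H1299 (median 1.51) and 3 fell labelled A549. RRM2 (ENSG00000171848, chromosome 2, 10120698 to 10131419), the small subunit of ribonucleotide reductase that limits the making of deoxynucleotides, had the largest log2 fold change of the 44 genes labelled H1299, 2.61 ± 0.065 (SE, adjusted p = 8.2e-06), from 0.671 and 0.806 FPKM to 9.94 and 9.35. Labelled A549 RRM2 fell from 16.1 and 17.3 to 11.7 and 12 (-0.46 ± 0.065, SE, adjusted p = 0.0069), so after miR-29a-3p the labels were near each other. Its partner RRM1 (ENSG00000167325, chromosome 11, 4094707 to 4138876) followed with smaller changes, from 5.74 and 5.25 to 11.3 and 11 FPKM labelled H1299 (0.90 ± 0.065, SE, adjusted p = 0.00011). It went from 15 and 16.2 to 12.4 and 11.7 labelled A549 (-0.35 ± 0.065, SE, adjusted p = 0.017). TK1 (ENSG00000167900, chromosome 17, 78174075 to 78187233), the S-phase thymidine kinase, rose from 4.8 and 3.52 to 20 and 19.2 FPKM labelled H1299 (2.01 ± 0.12, SE, adjusted p = 5.7e-05) and fell from 34.9 and 35.6 to 26.3 and 23.1 labelled A549 (-0.50 ± 0.12, SE, adjusted p = 0.039). The fall of RRM1 was lost without control 2 or either miR-29a-3p library labelled A549, and that of TK1 without any 1 of the 4 libraries of that label or either miR-29a-3p library labelled H1299.

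TYMS, the thymidylate synthase, stood at 7.63 and 8.79 FPKM in the controls and 26.7 and 31.6 with miR-29a-3p labelled H1299, a rise of 3.55-fold. Its exons share 967 bases with ENOSF1 on the other strand, which moved the other way there, from 4.45 to 2.04 FPKM (group means, adjusted p = 0.00011). DUT, which removes dUTP, rose 1.33-fold, the smallest ratio of this group, and has 8 named pseudogenes. UNG, the glycosylase that removes uracil from DNA, rose from 4.22 and 3.41 to 10.9 and 11 labelled H1299 (adjusted p = 0.0073). Labelled A549 its controls disagreed, at 13.2 and 6.57 FPKM against 12.3 and 13.5 with miR-29a-3p. The log2 fold change of UNG there was 0.42 and not called, 0.88 without control 1 (adjusted p = 0.020) and -0.03 without control 2.

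Labelled A549, 0 of the 4 regulators were called, but 12299 of all 14635 genes were not called there either. All 4 rose labelled H1299 (median 1.70). CLSPN (ENSG00000092853, chromosome 1, 35720218 to 35769967) rose from 0.442 and 0.372 FPKM to 4.37 and 4.71 (1.98 ± 0.057, SE, adjusted p = 9.8e-06). Labelled A549 its 4 libraries were nearly alike, at 14.9 and 15.2 in the controls and 15.2 and 15.1 with miR-29a-3p. E2F1, the transcription factor that drives many replication genes, went from 2.33 and 1.96 to 10.2 and 11.3 FPKM labelled H1299, and CCNE1, the cyclin that activates CDK2 at the start of S phase, from 1.44 and 1.31 to 5.56 and 5.89. Both hold a seed match in their 3′ UTR. CCNE2, the second E-type cyclin, rose from 0.122 and 0.078 to 2.04 and 1.84 FPKM, a ratio of 19.4 that rests on few control fragments, and it shares 1629 exon bases with INTS8 on the other strand. INTS8 stood at 2.86 and 3.57 FPKM (group means, adjusted p = 0.022).

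Other genes of the replication pathway formed lists with more rises than falls labelled H1299, where 25.1% of all genes rose and 24.8% fell. The share that rose was 64.7% of origin, 50% of fork, 90% of chromatin and 73.3% of stress and repair genes. It was 50% of the E2F and RB regulators and also 50% of 12 reference genes (median 0.26). The fork genes and the E2F and RB regulators thus did not exceed the reference genes. Of 17 further origin genes, 11 rose and 2 fell labelled H1299 (median 0.46), with RECQL4, a helicase of origin firing, highest at 1.27 and ORC5 lowest at -0.33. Of 16 further fork genes, 8 rose and 3 fell (median 0.17), from RNASEH2A, which degrades RNA primers, at 0.95 to POLE3, a histone-fold subunit of polymerase epsilon, at -0.69. Of 10 genes of S-phase chromatin, 9 rose and 0 fell (median 0.68), led by the histone chaperone ASF1B, from 0.829 ± 0.042 to 5.84 ± 0.43 FPKM (SD, n = 2 each). Of 15 genes of replication stress and repair, 11 rose and 0 fell (median 0.46), with FANCI of the Fanconi pathway highest at 1.30. Among 20 E2F and RB regulators 10 rose and 2 fell (median 0.21), with the repressor E2F7 highest at 1.48 and E2F6 lowest of those called at -0.53.

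Nucleotide synthesis outside S-phase supply did not move as one in the libraries labelled H1299. Of all genes 25.1% rose and 24.8% fell there, and of the further deoxynucleotide genes 40% and 10%. The purine and pyrimidine genes gave 14.3% and 42.9%, and the mitosis markers 0% and 37.5%. Of 10 further deoxynucleotide genes, 4 rose and 1 fell (median 0.05), from RRM2B, an alternative small subunit of ribonucleotide reductase, at 1.02 to DGUOK, a mitochondrial kinase, at -0.30. Of 14 tested genes of de novo purine and pyrimidine synthesis, 2 rose and 6 fell (median -0.09). CTPS1, the main CTP synthase, fell from 36.9 ± 0.89 to 14.4 ± 0.92 FPKM (SD, n = 2 each), and its relative CTPS2 rose from 2.69 ± 0.16 to 4.35 ± 0.38. Of 8 mitosis markers 0 rose and 3 fell (median 0.01), PLK1, a mitotic kinase, from 3.78 ± 1.1 to 1.66 ± 0.19. The summed level of these 8 markers was 66.9 to 72.0 FPKM in the controls and 64.6 to 66.6 with miR-29a-3p. Among 12 reference genes 6 rose and 1 fell (median 0.26).

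In the libraries labelled A549 the lists of fork, chromatin, E2F and RB, and mitosis genes each held more falls than rises. The origin list and the stress and repair list held 1 fall each, a share below that of all genes. Against 8.66% of all genes, 50% of the mitosis markers, 30% of the chromatin genes, 25% of the fork genes, 20% of the E2F and RB regulators, 6.67% of the stress and repair genes and 5.88% of the origin genes fell. Of the 17 origin genes 0 rose and 1, TICRR, fell (-0.35, adjusted p = 0.045). Of the 16 fork genes 1, TOP1, rose (0.22) and 4 fell, DSCC1 of the alternative clamp loader most (-0.68). Of the 10 chromatin genes 3 fell, CHAF1A most (-0.29), and of the 15 stress and repair genes 1, EXO1 (-0.26). Among the E2F and RB regulators 4 fell, the cyclin CCNA2 from 35.5 ± 0.1 to 21.8 ± 0.67 FPKM (SD, n = 2 each), and 1 rose, the phosphatase CDC25A (0.69). SAMHD1, which destroys deoxynucleotides, was the 1 called deoxynucleotide gene (0.26), and 0 of 14 purine and pyrimidine genes were called. Of all 14635 genes, 12299 were not called in these libraries. Mitosis markers fell in 4 of 8 cases, PLK1 from 19.2 ± 0.25 to 10.8 ± 0.91 FPKM, and their summed level was 269 to 280 FPKM in the controls and 217 to 225 with miR-29a-3p. The part of these proliferation markers in the falls of the replication genes was not tested.

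**Figure D4:**
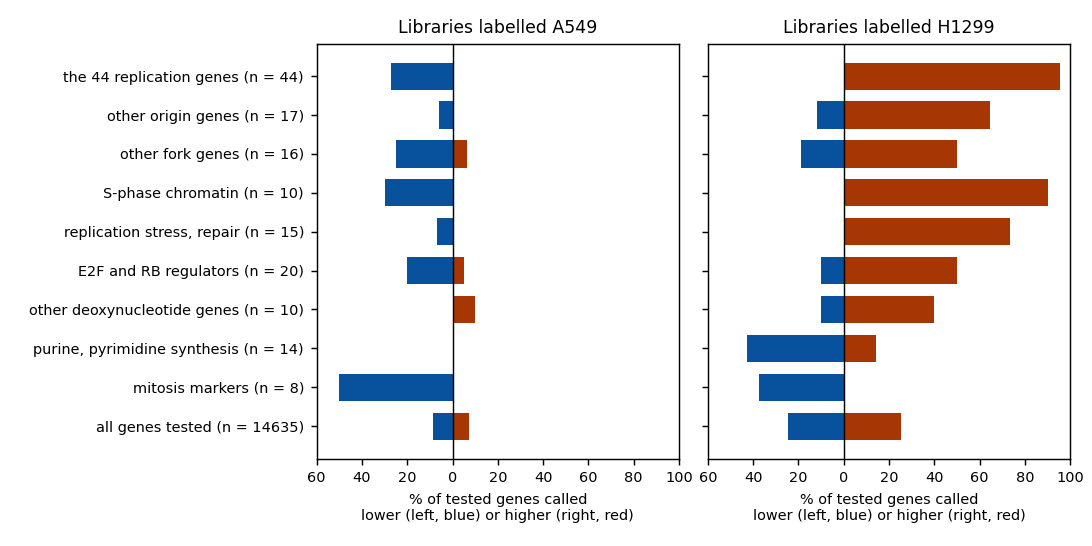
Share of tested genes called higher (right, red) or lower (left, blue) after miR-29a-3p in each list, in percent, for the libraries labelled A549 and H1299. The 44 replication genes show 95.5% higher labelled H1299 and 27.3% lower labelled A549, beside 25.1% and 8.66% of all genes tested.

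Counting could blur some of these values. The sources used here do not give the strand setting, and 12 of the 44 genes share exon bases with a tested gene on the opposite strand, and 2 (PRIM1 with NACA and FEN1 with FADS2) with one on the same strand. Named pseudogenes exist for 9 genes, among them RRM2, RPA2 and PCNA with 3 each.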

How the data were processed

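The 8 RNA-seq libraries fall into 4 groups of 2 by line and transfection, per the labels. Per the file headers, the deposited values are FPKM. StringTie and GRCh38 appear in the submitters' processing notes. Versions, aligner, annotation and strand setting: not given in the sources used here. Only the 14635 genes that reached 1 FPKM in 2 or more libraries were tested with limma 3.58.1 in R 4.3.3 on log2(FPKM + 1), a scale that understates changes of low genes, with 4 group means and a variance trend (4 residual and 2.36 prior degrees of freedom). Benjamini-Hochberg adjustment ran over all genes tested, and a gene listed for 1 line only (120 tested genes) was taken as 0 in the other. The code was tested on simulated data. Depth was estimated from the value of 1 fragment in genes with 1 annotated transcript, where 98.7 to 99.0% of values came out whole within 0.02. Seed matches were searched in GENCODE 29 and promoters in RefSeq. The 44 genes and all other lists were chosen with earlier results of these data known. Full statistics are given for the largest called change of each role group and line and for genes called in opposite directions, and of other lists the highest and lowest called gene of each line is named. In the list of further deoxynucleotide genes, 1 gene was left out and is not reported here.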

Additional observations from a re-analysis of the deposited data

Results flagged for a closer look

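The response to miR-29a-3p differed between the labels for 42 of the 44 replication genes in limma's test of the difference itself (adjusted p of 3.4e-05 for RRM2 to 0.048 for RFC2). Values are the log2 fold change labelled H1299 minus that labelled A549, all in the same direction. In the MCM helicase the difference was 0.52 for MCM2, 1.49 for MCM3, 2.11 for MCM4, 1.41 for MCM5, 1.5 for MCM6 and 0.56 for MCM7. Among origin licensing genes it was 1.69 for ORC1, 0.62 for ORC6, 1.60 for CDC6, 1.71 for CDT1 and 1.17 for MCM10. For the helicase activators it was 1.12 for CDC45, 1.65 for GINS1, 1.81 for GINS2, 0.55 for GINS3 and 2.25 for GINS4. The clamp and its loader gave 2.36 for PCNA, 0.60 for RFC2, 0.82 for RFC3, 0.49 for RFC4 and 0.90 for RFC5. Polymerase and primase genes gave 0.75 for POLA1, 0.82 for POLA2, 0.74 for PRIM1, 0.99 for PRIM2, 0.82 for POLE, 0.84 for POLE2 and 1.14 for POLD1. Strand processing and single-strand binding gave 1.5 for FEN1, 1.91 for LIG1, 0.73 for RPA1, 0.84 for RPA2 and 0.63 for RPA3. Nucleotide supply gave 1.25 for RRM1, 3.08 for RRM2, 1.96 for TYMS, 2.51 for TK1 and 0.38 for DUT, and the regulators 1.97 for CLSPN, 1.70 for CCNE1, 1.42 for CCNE2 and 1.81 for E2F1. RFC2 was not called without any 1 of the 4 libraries labelled A549, nor without control 1 or miR-29a-3p 2 labelled H1299. RFC4 was not called without control 2 or miR-29a-3p 1 labelled A549, nor without control 1, control 2 or miR-29a-3p 1 labelled H1299. ORC6 was not called without control 2 labelled A549, control 2 labelled H1299 or miR-29a-3p 2 labelled H1299. Under the alternatives the value of RFC2 ranged from 0.43 to 0.78, that of RFC4 from 0.38 to 0.71 and that of ORC6 from 0.49 to 0.96.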

How the results depend on the processing

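Each of the 12 falls labelled A549 and 42 rises labelled H1299 kept its direction in every alternative run. Calls labelled A549 were less stable. With the groups of that comparison alone 7 replication genes were lower, and 458 genes were higher and 613 lower of all. Leaving out 1 library gave 5 to 12 replication genes lower, 0 to 1 higher, and 488 to 866 genes higher and 578 to 1071 lower of all. Of the 42 rises labelled H1299, 39 to 42 were still called, and of the 42 calls in the difference in response 39 to 41. The replicate numbers were treated as names, because the deviations of same-numbered libraries correlated at -0.037 to 0.063. The replicate block gave 8 replication genes lower labelled A549 and 561 higher and 700 lower of all, 41 higher labelled H1299 and 42 for the difference in response. A mean of at least 5 FPKM left fewer genes to test: 1790 higher and 1983 lower labelled H1299, 1442 and 1542 for the difference in response, 1932 and 2991 between controls, 1694 and 3124 between miR-29a-3p libraries, where 3 replication genes were higher. UNG labelled A549 was -0.03 without control 2 and 0.88 without control 1. PCNA turned to 0.01 with median ratio and 0.02 with trimmed mean rescaling between controls. The fit of the compared groups alone gives no value for the difference in response. Depth limits CCNE2, POLE2 and GINS2 in the controls labelled H1299, and also other genes there, among them PRIM2, RFC4, GINS4, CLSPN and RRM2.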
